A study of Homo sapiens with 6 samples.

Results

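The human matrix metalloprotease (MMP) genes MMP7, MMP20, MMP27, MMP8, MMP10, MMP1, MMP3, MMP12 and MMP13 lie side by side on chromosome 11, in this order and with no other protein-coding gene between them in the RefSeq gene table of GRCh38.p14. They were read here in 76N cells, labelled as a line of normal mammary epithelial cells, grown in DFCI-1 medium and transfected either with a control siRNA (3 arrays) or with an siRNA against Ecd (3 arrays). Ecd is the product of ECD, the human counterpart of the fly gene ecdysoneless. Each array held biotin-labelled total RNA of 1 biological replicate on a 1-colour Affymetrix platform, and for the siRNA its sequence, dose and time of action are not given in the sources used here. All probe sets annotated to 1 of these 9 gene symbols alone were taken, 10 probe sets of the 54675 on the array and 9 of 19775 named genes. MMP8 had 2 probe sets and each of the other genes had 1. The cluster was selected on measured results of this same comparison, in which several of its genes were known to be among the large rises. All differences between the groups for the 9 genes are therefore given as a description, with no p-value.

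MMPs are zinc-dependent endopeptidases that are secreted, or held at the cell surface, as inactive proenzymes. They become active once their propeptide is cut off, are inhibited by the TIMP proteins, and cut collagens and other parts of the extracellular matrix. The enzymes of this cluster fall into classes by their substrates. MMP1, MMP8 and MMP13 encode collagenases, MMP3 and MMP10 stromelysins, MMP7 matrilysin, MMP12 the macrophage elastase and MMP20 the enamelysin of developing teeth. Many of these genes are known to respond to AP-1, a family of dimers of FOS and JUN proteins that bind a short palindromic DNA motif, and to ETS factors. In epithelium, MMP7 is known as an enzyme of gland and duct cells, while MMP1, MMP10 and MMP13 are known from wound edges and tumours.

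Promoter sequence is shown first, for the cluster genes that had an entry. RefSeq promoter entries (GRCh38.p14) were at hand for MMP7, MMP8, MMP10, MMP20 and MMP27, and those of MMP1, MMP3, MMP12 and MMP13 were not used here. All 5 genes lie on the minus strand, and the 150 bases that precede each start, at position -1 on the right, are printed 5′ to 3′ in the direction of transcription. Capitals mark matches to the AP-1 motif TGANTCA and to the TATA motif TATAAA, each searched on both strands in the 250 bases before the start. The stretches are chr11:102530748-102530897 for MMP7, chr11:102780629-102780778 for MMP10, chr11:102625333-102625482 for MMP20, chr11:102724955-102725104 for MMP8 and chr11:102705770-102705919 for MMP27.
MMP7: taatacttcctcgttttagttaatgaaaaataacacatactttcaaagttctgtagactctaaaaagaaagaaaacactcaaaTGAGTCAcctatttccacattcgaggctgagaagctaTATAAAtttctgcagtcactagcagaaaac
MMP10: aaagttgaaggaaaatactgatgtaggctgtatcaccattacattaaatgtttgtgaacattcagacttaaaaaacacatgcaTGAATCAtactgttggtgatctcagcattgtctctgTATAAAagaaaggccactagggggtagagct
MMP20: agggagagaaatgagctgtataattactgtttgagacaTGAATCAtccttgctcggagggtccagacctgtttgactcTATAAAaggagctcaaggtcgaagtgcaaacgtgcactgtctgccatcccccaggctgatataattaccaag
MMP8: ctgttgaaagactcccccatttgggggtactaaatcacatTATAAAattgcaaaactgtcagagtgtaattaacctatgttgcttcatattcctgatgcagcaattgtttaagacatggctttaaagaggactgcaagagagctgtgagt
MMP27: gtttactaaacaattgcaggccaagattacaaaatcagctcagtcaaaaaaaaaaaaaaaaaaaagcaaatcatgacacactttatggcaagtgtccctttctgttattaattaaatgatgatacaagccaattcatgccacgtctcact

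The AP-1 match lay from -67 to -61 in both MMP7 and MMP10. It reads TGAGTCA in MMP7 and TGAATCA in MMP10. The TATA match was at -30 to -25 in MMP7 and at -31 to -26 in MMP10. MMP20 held both motifs too, but farther from its start, with TGAATCA from -112 to -106 and TATAAA from -72 to -67. MMP8 held only a TATA match, from -110 to -105, and MMP27 held neither motif. Of 27305 RefSeq promoters, 6.6% held TGANTCA in the same 250-base window, 11.1% held TATAAA and 1.11% held both at any positions in it. The share with both at the positions seen in MMP7 and MMP10 was not counted. The ETS-type motif AGGAAG, present in 28.7% of promoters, matched on the reverse strand of MMP7 only among the 5, at -169 to -164 and -145 to -140. The TCF/LEF-type motif CTTTGAA, present in 3.9% of promoters, was found in MMP7 alone of the 5, at -194 to -188 and, on the reverse strand, at -109 to -103. None of these motifs overlapped another. Such matches describe the letters and do not show that a factor was bound. Their part in the changes of these genes was not tested.

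The siRNA target was lower as labelled: ECD read 1076.6, 1011.4 and 1007.2 under control siRNA and 588.9, 599.8 and 542.5 under Ecd siRNA, and kept 55.9% of its control signal (log2 change -0.82, SE 0.10, limma adjusted p = 0.000172). Values are MAS5 signals on a linear scale, to which 16 was added before taking log2, so that fold changes of dim genes are understated. The arrays had been scaled alike, with medians of 128.7 to 147.6. The 3' to 5' signal ratio of the GAPDH control probe sets was 0.974 to 0.980 in the control arrays and 0.974 to 1.003 in the Ecd siRNA arrays, and that of beta actin was 1.066 to 1.108 and 1.065 to 1.158. Genes entered the test if the geometric mean of signal + 16 over the 6 arrays corresponded to a signal of at least 84.6, which left 14603 genes, each read by its brightest probe set. Below, rose and fell are used of genes with an adjusted p under 0.05 in the limma fit over all these genes. For the cluster genes, which were chosen on this same comparison, these words and the threshold only sort the description. They are no test result for these genes. Basal epithelial marker genes were strongly expressed on every array, among them KRT5 (mean control signal 16430) and KRT14 (21390). In bulk RNA, more cells of a type and more RNA per cell cannot be told apart.

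Of the 9 cluster genes, 8 passed the filter, and none of these 8 depended on the Ecd siRNA arrays to do so, since each had a control mean above it. The fit over all genes called 5 of them higher with Ecd siRNA (MMP7, MMP10, MMP1, MMP12 and MMP13) and 0 lower. Across all tested genes 10.1% were called higher, 11.0% lower and 21.1% either way. In the same 5 genes the 3 Ecd siRNA arrays all lay above the 3 control arrays, which held for 18.1% of all tested genes. For 4 of them the log2 change exceeded 2, and 14 of 14603 tested genes (0.0959%) were likewise both called and above 2. The median log2 change was 1.43 over the 8 tested cluster genes and 0.008 over all tested genes. The remaining 3 tested genes, MMP27, MMP8 and MMP3, did not pass the threshold, and MMP20 lay under the filter. Since this comparison led to the choice of the cluster, nothing is read from these counts.

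**Figure D1:**
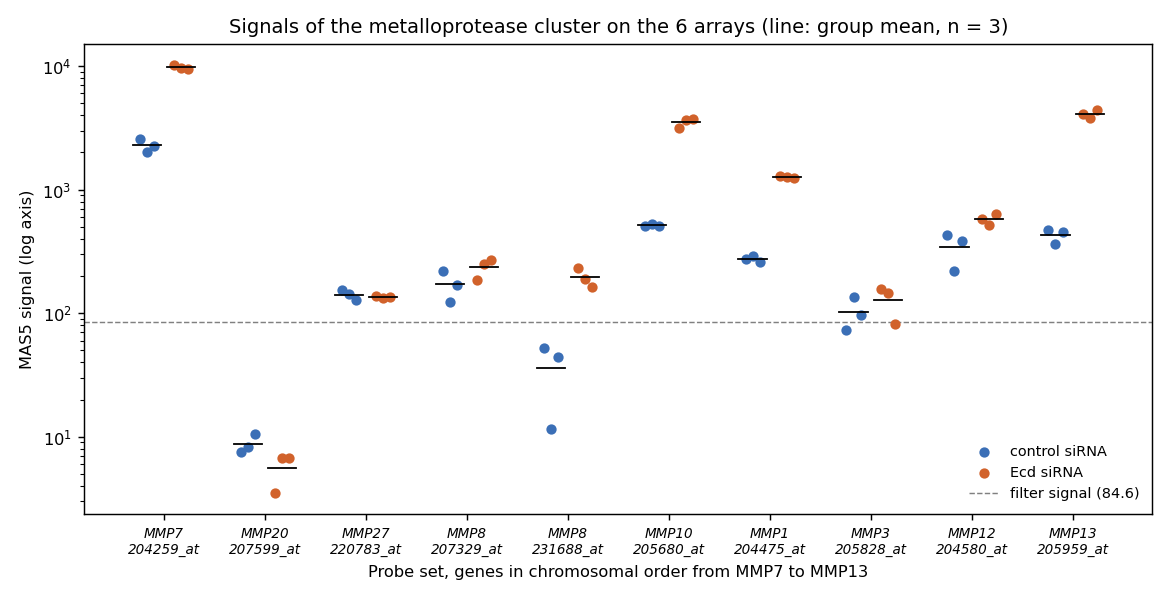
MAS5 signal (log axis) of each of the 10 probe sets of the cluster on each array, in chromosomal order, for control siRNA and Ecd siRNA (points: 3 arrays each; line: group mean; dashed line: the signal of 84.6 that corresponds to the filter). The groups are well apart for MMP7, MMP10, MMP1 and MMP13 and for the second MMP8 probe set, and they overlap for MMP27, MMP3 and the first MMP8 probe set.

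Among the collagenases, MMP13 had the largest rise of all 14603 tested genes. MMP13 encodes collagenase 3, which cuts type II collagen with preference. Its signals were 473.6, 360.0 and 455.5 under control siRNA, against 4060.8, 3774.5 and 4374.9 under Ecd siRNA. The lowest Ecd siRNA array was 7.97 times the highest control array, so the groups were far apart. Means were 429.7 ± 61.0 and 4070 ± 300.3 (SD, n = 3 each), a ratio of 9.47 and a log2 change of 3.20 (SE 0.11).

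MMP1 encodes the interstitial collagenase, which opens fibrillar collagens of types I and III. It read 276.9, 292.3 and 257.1 under control siRNA, against 1295.1, 1267.6 and 1252.1 under Ecd siRNA. Replicates differed little, with a coefficient of variation of 6.41% in the control group and 1.71% in the Ecd siRNA group. The means of 275.4 ± 17.6 and 1272 ± 21.8 (SD, n = 3 each) gave a ratio of 4.62 and a log2 change of 2.15 (SE 0.09), the eleventh largest rise of the tested genes.

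MMP8, the collagenase known from neutrophils, was read differently by its 2 probe sets. The brighter one gave 218.6, 124.0 and 170.2 under control siRNA, against 186.7, 251.0 and 271.2 under Ecd siRNA. Its groups overlapped, and its log2 change of 0.45 (SE 0.25) did not pass the threshold. The other one gave 51.8, 11.6 and 44.0 under control siRNA, against 230.6, 190.5 and 162.1 under Ecd siRNA, with a log2 change of 2.11 (SE 0.38). Here the groups did not overlap, although all control values lay under 84.6 and control replicate 2 was far lower than the other two. With the mean of both probe sets MMP8 was at 1.28 and was called, so that its place among the rises rests on the choice of probe set.

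Of the stromelysins, which act on many matrix proteins and can activate other proenzymes of the family, MMP10 rose and MMP3 did not pass. MMP10 read 511.8, 522.4 and 503.6 under control siRNA, the tightest control group of the cluster with a coefficient of variation of 1.84%. In the Ecd siRNA arrays it read 3167.2, 3680.5 and 3728.6. Means of 512.6 ± 9.42 and 3525 ± 311.2 (SD, n = 3 each) gave a ratio of 6.88 and a log2 change of 2.74 (SE 0.08), the third largest rise of the tested genes. MMP3, which lies beyond MMP1 as seen from MMP10, was dim. It read 73.2, 135.3 and 97.5 under control siRNA, against 156.8, 145.9 and 81.3 under Ecd siRNA. The groups overlapped, and the log2 change of 0.28 was smaller than its SE of 0.33.

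MMP7 was the brightest probe set of the cluster in both groups, although signals of different probe sets are not comparable as transcript levels. It encodes matrilysin, a short enzyme without the hemopexin domain that most MMPs carry. Signals were 2581.1, 2029.0 and 2266.0 under control siRNA, against 10128.1, 9638.1 and 9553.2 under Ecd siRNA. The groups were apart by 3.70 times between the nearest arrays. Means of 2292 ± 277.0 and 9773 ± 310.3 (SD, n = 3 each) gave a ratio of 4.26 and a log2 change of 2.09 (SE 0.09). MMP7 lies at the opposite end of the cluster from MMP13, the gene with the largest change.

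MMP12, the elastase gene, rose less. It read 430.5, 218.9 and 380.2 under control siRNA, against 577.2, 515.8 and 630.9 under Ecd siRNA. The nearest arrays of the groups differed by 1.2 times only, and the control arrays were spread with a coefficient of variation of 32.2%. Means of 343.2 ± 110.5 and 574.6 ± 57.6 (SD, n = 3 each) gave a ratio of 1.67 and a log2 change of 0.77 (SE 0.23). Its call was lost without Ecd siRNA replicate 1, 2 or 3, without the filter and without the intensity trend, and the change ranged from 0.49 without control replicate 2 to 0.95 without control replicate 1. The calls of MMP7, MMP10, MMP1 and MMP13 were kept under all 17 alternatives. These are refits of the same arrays that led to the choice of the cluster, so nothing is read from the kept calls.

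MMP27 and MMP20 were dim, and no change was called for either. MMP27 read 153.6, 142.6 and 127.9 under control siRNA, against 136.5, 132.1 and 135.4 under Ecd siRNA, a log2 change of -0.06 (SE 0.21) between overlapping groups. MMP20, known from tooth enamel, had the lowest signals of the cluster, at 7.5, 8.3 and 10.6 under control siRNA, against 3.5, 6.7 and 6.7 under Ecd siRNA. The groups did not overlap, but these values lie far under the filter and carry no detection call, so no change is read from them. None of the 10 probe sets has a name ending in _s_at or _x_at, the marks of probe sets that can bind several transcripts. Binding of related MMP transcripts to them was not tested.

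Replicates within a group also differed between the genes. Control replicate 2 had the lowest control signal in 5 of the 10 probe sets, those of MMP7, MMP12, MMP13 and both of MMP8, but the highest in the 3 probe sets of MMP10, MMP1 and MMP3. In no cluster gene called higher did an Ecd siRNA array reach down to a control array.

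**Figure D2:**
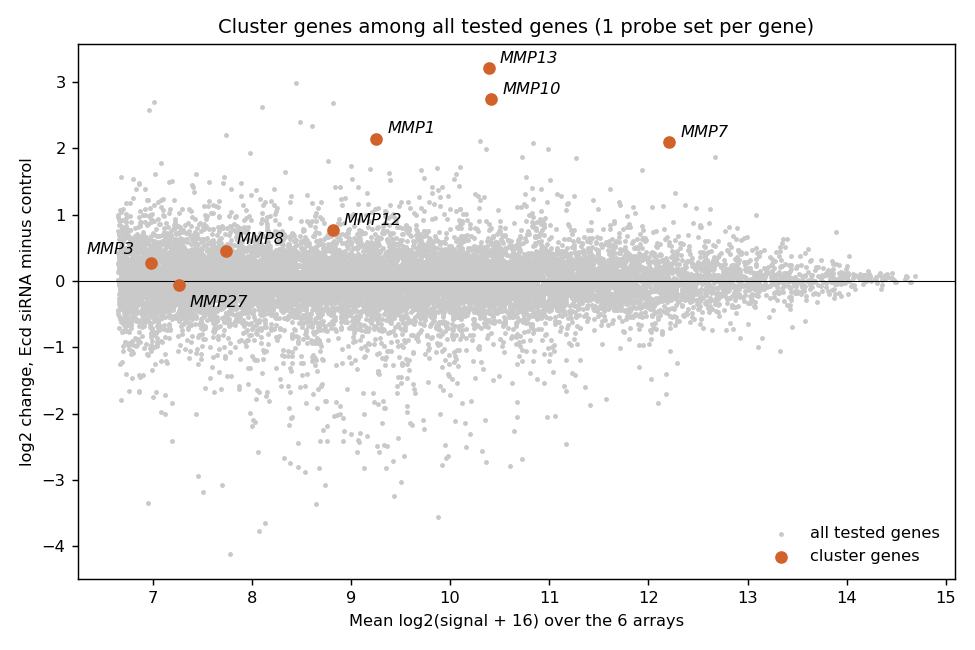
Log2 change with Ecd siRNA (vertical axis) against the mean log2(signal + 16) over the 6 arrays (horizontal axis) for all 14603 tested genes (grey) and the 8 tested cluster genes (orange, named). MMP13 has the highest value of the plot at 3.20, MMP10, MMP1 and MMP7 lie between 2.09 and 2.74, and MMP3, MMP8 and MMP27 lie within the grey band.

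The genes on both sides of the cluster served as a local comparison. Of the 10 protein-coding genes on each side, 17 had a probe set of their own and 13 passed the filter. Of these 13, 3 rose, 0 fell and 10 did neither, beside 10.1% called higher and 11.0% called lower over all tested genes. Log2 changes lay between -0.19 and 0.75 around a median of 0.19. At an unadjusted p under 0.05, 6 of the 13 passed, and the share of all tested genes at that p is not given here. TMEM123, a membrane protein gene and the nearest neighbour on the MMP7 side, went from 5758 ± 507.3 to 7172 ± 877.8 (SD, n = 3 each), a log2 change of 0.31 (limma adjusted p = 0.0453). Its groups overlapped, with 6177.4 in Ecd siRNA replicate 1 under 6341.7 in control replicate 3. The next gene on that side, BIRC2, which encodes the inhibitor of apoptosis protein cIAP1, changed by 0.21 (adjusted p = 0.0490). Both calls were at the edge. That of BIRC2 was lost on leaving out any 1 of the 6 arrays, with adjusted p up to 0.148, and TMEM123 lost its own on leaving out 4 of them (controls 1 and 2, Ecd siRNA 2 and 3), also up to 0.148, so that the count of 3 fell to 1 without control 1, Ecd siRNA 2 or Ecd siRNA 3.

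On the MMP13 side the nearest gene, DCUN1D5, a cullin neddylation factor gene, did not pass at -0.19 (adjusted p = 0.106). The average of its probe sets was at 0.05 (adjusted p = 0.763). DYNC2H1, a motor subunit gene of cilia, followed at 0.39 (adjusted p = 0.151, and 0.0294 without control replicate 2). Without control replicate 3 DYNC2H1 was at 0.24 (adjusted p = 0.397), and the average of its probe sets was at 0.04 (adjusted p = 0.903). PDGFD, which encodes a platelet-derived growth factor, was the third gene on that side. It read 484.8, 348.8 and 404.8 under control siRNA, against 731.6, 629.8 and 734.5 under Ecd siRNA, and it rose by 0.75 (SE 0.14, adjusted p = 0.00328). That was the largest change among the tested neighbours, and its call was kept under all 17 alternatives. Beyond it, CASP4 was at 0.30 (adjusted p = 0.0553) and CASP1 at -0.10 (adjusted p = 0.441), both named after their values were seen.

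**Figure D3:**
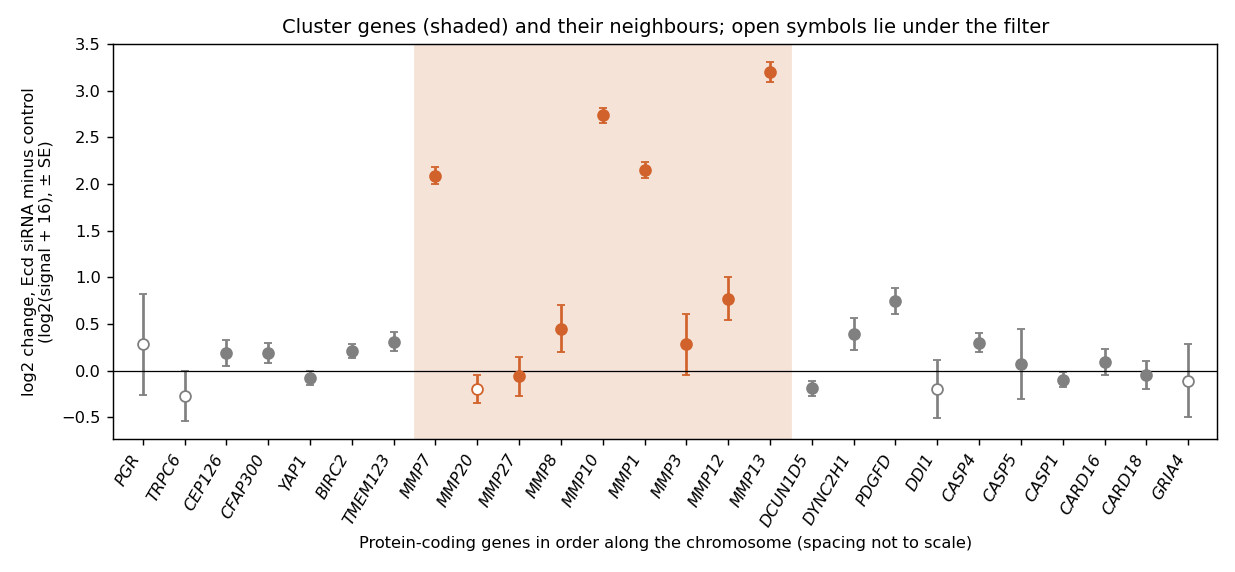
Log2 change with Ecd siRNA ± SE for each protein-coding gene with a probe set of its own, in order along chromosome 11 (cluster shaded, spacing not to scale, open symbols under the filter). MMP7, MMP10, MMP1 and MMP13 stand above 2. Lower genes lie between MMP7 and MMP10 and between MMP1 and MMP13, while MMP10 and MMP1 are adjacent. The tested neighbours lie between -0.19 and 0.75.

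Genes of transcription factor families known to act on MMP genes were called in both directions. Of 16 tested AP-1 and MAF genes, 6 were called higher, 2 lower and 8 neither, and the median stood at 0.18 beside 0.008 for all tested genes. The shares over all tested genes were 10.1% higher, 11.0% lower and 21.1% either way. They stand beside this count and the count of every list below, and no list was tested against them. FOSL1, which encodes the AP-1 subunit FRA-1, fell from 2435 ± 86.5 to 1106 ± 65.9 (SD, n = 3 each), a log2 change of -1.13 (adjusted p = 5.55e-06). FOSL2, which encodes FRA-2, rose from 2784 ± 222.0 to 4463 ± 242.6, by 0.68 (adjusted p = 0.000193). MAF rose by 1.16 (adjusted p = 3.87e-05, and by 0.55 to 0.63 with other probe sets or their average), and the small MAF gene MAFF by 0.29 (adjusted p = 0.0122). ATF3 was the other gene that fell (-0.47, adjusted p = 0.0158), but it was at -0.002 in probe sets without _s_at or _x_at (adjusted p = 0.995) and lost its call without control 1 (0.0609). The classical subunit genes FOS (0.66, adjusted p = 0.0212), JUN (0.43, adjusted p = 0.0219) and JUND (0.23, adjusted p = 0.0205) rose too. ATF3, FOS, JUN and JUND were named after their values were seen. The count of 8 calls fell to 3 without control 1 and to 4 without Ecd siRNA 2. JUN was at -0.005 in a probe set without _s_at or _x_at. Another of its probe sets stood at 1.09, and JUN kept its call with the mean of its probe sets. The calls of FOS, MAFF, JUN and JUND were each lost on leaving out control replicate 1, and again on leaving out Ecd siRNA replicate 2, with adjusted p up to 0.0854, and averaging the probe sets of a gene ended the calls of FOSL2 (adjusted p = 0.0565), MAFF (0.163), JUND (0.752) and ATF3 (0.251).

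Among 17 tested ETS, RUNX and C/EBP genes, 3 were called higher, 3 lower and 11 neither, and the median stood at -0.14. ETV4, which encodes the ETS factor PEA3, fell from 829.9 ± 142.6 to 364.0 ± 63.1 (SD, n = 3 each), a log2 change of -1.15 (adjusted p = 0.000609). The C/EBP genes CEBPD (0.38, adjusted p = 0.00119) and CEBPB (0.24, adjusted p = 0.0191) rose, as did ETS2 (0.31, adjusted p = 0.0450). ELK3 (-0.28, adjusted p = 0.0220) and ETV5 (-0.40, adjusted p = 0.0238) fell. ETS2 and ETV5 were named after their values were seen. RUNX2, known as an activator of MMP13 in bone, had signals of 791.6 ± 60.8 and 940.5 ± 85.6 (SD, n = 3 each) and did not pass (0.24, adjusted p = 0.143). Of the 6 calls, 2 remained in number without control replicate 1, where those of CEBPB, ETS2, ELK3 and ETV5 were lost. Averaging the probe sets of a gene ended those of ETS2 (adjusted p = 0.384), ELK3 (0.327) and ETV5 (0.200), and ETV5 was at -0.17 in probe sets without _s_at or _x_at.

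Feedback genes of the ERK kinase pathway, a known inducer of AP-1, did not move one way. Of 13 tested, 2 were called higher, 3 lower and 8 neither, and the median stood at -0.09. DUSP1, a phosphatase gene of MAP kinases, rose by 0.57 (adjusted p = 0.000219), and SPRY1, named after its value was seen, by 0.36 (adjusted p = 0.0360). DUSP5 (-0.60, adjusted p = 0.000702), SPRED2 (-0.36, adjusted p = 0.00753) and SPRY4 (-0.58, adjusted p = 0.0186) fell. The 5 calls became 3 without control 2, control 3 or Ecd siRNA 1, where SPRY1 and SPRY4 were lost. Averaging the probe sets of a gene ended the calls of DUSP1 (adjusted p = 0.186), SPRED2 (0.824) and SPRY1 (0.385).

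Genes whose products activate MMP proenzymes also split. Of 10 tested, 2 were called higher, 2 lower and 6 neither, and the median stood at 0.00. MMP2, which encodes gelatinase A, rose from 3478 ± 199.3 to 5998 ± 108.4 (SD, n = 3 each), by 0.78 (adjusted p = 1.9e-05), but averaging its probe sets gave 0.20 (adjusted p = 0.454). PRSS8, a membrane serine protease gene, rose by 0.66 (adjusted p = 0.00159). PLAU, which encodes the urokinase that turns plasminogen into plasmin, fell from 9476 ± 326.2 to 5780 ± 751.3 (SD, n = 3 each), by 0.72 on the log2 scale (adjusted p = 0.000282). HPN, the hepsin gene, was at -0.78 (adjusted p = 0.00742). MMP14, the membrane-type MMP gene that activates pro-MMP2 and pro-MMP13, read 4319 ± 582.5 and 3628 ± 1313 and did not pass (-0.31, adjusted p = 0.380).

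Of 6 tested inhibitor genes, 2 were called higher, 1 lower and 3 neither, and the median stood at 0.17. TIMP2 went from 1549 ± 228.4 to 3442 ± 159.1 (SD, n = 3 each), a rise of 1.15 (adjusted p = 2.54e-05). TIMP3 rose by 0.68 (adjusted p = 9.69e-05), and by 0.39 as the average of its probe sets. TFPI2, a Kunitz-type inhibitor gene, fell from 6941 ± 479.2 to 2494 ± 336.0, a log2 change of -1.48 (adjusted p = 4.15e-06). These 3 calls were kept under all 17 alternatives. TIMP1 read 6957 ± 416.4 and 7808 ± 197.4 (SD, n = 3 each) and did not pass (0.17, adjusted p = 0.1). Of 8 tested MMP genes outside the cluster, 3 rose and 0 fell, namely MMP2, the gelatinase B gene MMP9 (1.28, adjusted p = 1.91e-05) and MMP28 (0.89, adjusted p = 5.97e-05), with a list median of 0.13. MMP19, named after its values were seen, was at -0.99 and did not pass (adjusted p = 0.0797).

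Among genes of surface proteins that bind these enzymes or take up their products, 2 of 8 tested rose, 0 fell and the median was 0.10. ITGA2 (-0.29, adjusted p = 0.0607) and SDC1 (-0.19, adjusted p = 0.0588), named after their values were seen, were just short of the threshold on the lower side. Both were called lower, for 4 calls in all, under quantile normalization, the upper 40% filter and the replicate block, and 1 call was left in probe sets without _s_at or _x_at. MRC2, which encodes a collagen uptake receptor, rose from 2386 ± 234.2 to 4107 ± 140.3 (SD, n = 3 each), by 0.78 (adjusted p = 8.74e-05). Its second probe set stood at -0.03, and the average of both gave 0.38 (adjusted p = 0.0109). LRP1, whose product clears MMP13 and other proteases from the cell surface, rose by 0.57 (adjusted p = 0.00295). Among 14 tested matrix substrate genes, 4 were called higher, 1 lower and 9 neither, and the median stood at 0.21. TNC, the tenascin C gene, rose by 1.09 (adjusted p = 1.69e-05, and by 0.67 as the average of its probe sets), SPARC by 0.47 (adjusted p = 0.000662, and by 0.76 in probe sets without _s_at or _x_at), COL1A1 by 0.52 (adjusted p = 0.00970) and VCAN by 0.29 (adjusted p = 0.0227), the last named after its value was seen. COL4A1, of the basement membrane, fell by 0.32 on the log2 scale (adjusted p = 0.0120). The 5 calls became 3 without control replicate 1, where VCAN and COL4A1 were lost. Averaging the probe sets of a gene ended the calls of COL1A1 (adjusted p = 0.263) and COL4A1 (0.222).

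**Figure D4:**
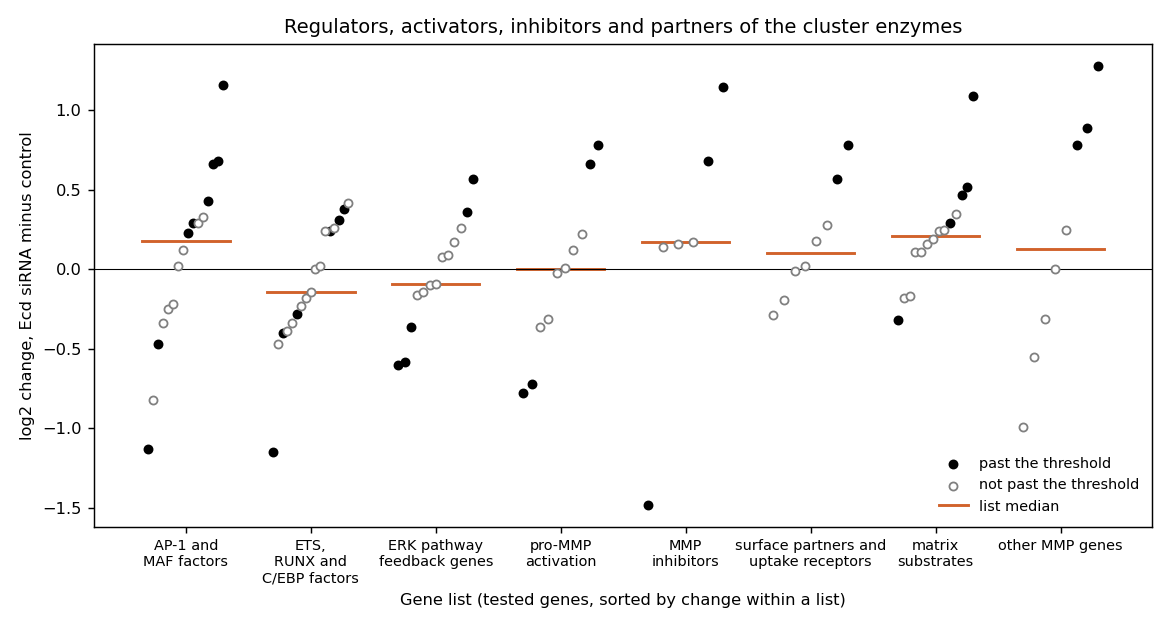
Log2 change with Ecd siRNA of each tested gene in 8 lists of regulators, activators, inhibitors and partners of the cluster enzymes (filled: past the threshold; open: not past it; orange line: list median). List medians lie between -0.14 and 0.21, and the lowest symbol is TFPI2 among the inhibitors at -1.48.

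Other cell types known to express cluster genes were read through their markers. Of 12 fibroblast markers with a probe set, 6 were above the filter, and their summed signal over all 12 was 4495 to 5217 in the control arrays and 7675 to 8471 in the Ecd siRNA arrays. FAP, a membrane protease gene, rose from 2610 ± 222.2 to 5334 ± 433.0 (SD, n = 3 each), by 1.03 (adjusted p = 1.7e-05). FAP carried most of the sum: without it the other 11 markers summed to 2108 to 2607 under control siRNA and 2644 to 2872 under Ecd siRNA. FBN1 (0.66, adjusted p = 0.00541) and COL1A1 rose as well, and 0 fell in the limma fit. FBN1 was at 0.46 in probe sets without _s_at or _x_at (adjusted p = 0.381) and at 0.995 as the average of its probe sets (adjusted p = 0.00366). The call of COL1A1 was lost on averaging its probe sets (adjusted p = 0.263). THY1 (-0.32, adjusted p = 0.304), COL1A2 (-0.17, adjusted p = 0.644) and DCN (0.11, adjusted p = 0.791) did not pass, and COL3A1, COL6A3, LUM, PDGFRA, PDGFRB and POSTN were under the filter. Of 9 macrophage markers, 4 were above the filter, 0 rose and 0 fell in the limma fit (0 at an unadjusted p under 0.05), and the sum was 833.2 to 992.0 and 807.6 to 977.6, with PTPRC, CD14, CD163, AIF1 and MARCO under the filter. CD14, a receptor for bacterial lipopolysaccharide, was not tested because its mean over all arrays was under the filter. It read 92.0, 102.1 and 140.6 under control siRNA, against 78.0, 18.3 and 20 under Ecd siRNA, groups that did not overlap (log2 change -1.37, SE 0.42). Of the tested macrophage markers, CSF1R, the receptor gene of macrophage growth factors, had the smallest p (0.37, adjusted p = 0.257), followed by LYZ (0.22, adjusted p = 0.684). Of 8 neutrophil markers, 4 were above the filter and 0 rose or fell (0 at an unadjusted p under 0.05), with a sum of 620.6 to 667.4 and 731.8 to 765.9 and with ELANE, PRTN3, CEACAM8 and LTF under the filter. The smallest p values there were those of S100A12 (0.33, adjusted p = 0.298) and MPO (0.26, adjusted p = 0.6). Luminal keratin gene KRT18 fell (-0.52, adjusted p = 0.00187), GATA3 rose (0.46, adjusted p = 0.00102, but 0.218 in probe sets without _s_at or _x_at), and the luminal sum was 29160 to 30420 and 24610 to 28070. Of 7 basal markers, DSG3 (0.50, adjusted p = 0.000513), CDH3 (0.38, adjusted p = 0.00733) and ITGB4 (0.29, adjusted p = 0.0183) were called higher. In probe sets without _s_at or _x_at ITGB4 was instead called lower (-1.12, adjusted p = 0.0155). The basal sum was 100000 to 109700 and 109200 to 122500. The part of the fibroblast, macrophage, neutrophil, luminal and basal marker shifts in the rises of the cluster genes was not tested.

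For each cluster gene that rose, the 3 tested genes outside the cluster were sought whose 6 log2 values, set relative to their own control mean, differed least from it on average. Nearest to MMP13 was the cytokine gene IL32, with a mean difference of 0.197 over the 6 arrays, then TNFAIP6 (0.429) and SYT12 (0.440). MMP10 was nearest to TNFAIP6 (0.142), which encodes a hyaluronan-binding protein, then BEND5 (0.164) and IL32 (0.174). MMP7 lay nearest to the monoamine oxidase gene MAOB (0.089), the ephrin receptor gene EPHA3 (0.096) and TCN1 (0.118). MMP1 shared EPHA3 (0.104) and MAOB (0.142) with it, after CLCA4 (0.087). MMP12 was nearest to COMMD9 (0.101), IGSF9 (0.111) and H2BC12 (0.117). These genes were picked for their values in this comparison and are a description of 6 arrays. Among them, BEND5, SYT12 and EPHA3 had mean control signals of 35.73, 35.9 and 83.9, under the filter signal of 84.6. Their means under Ecd siRNA were 290.8, 321.1 and 443.4, so they depended on the Ecd siRNA arrays to pass the filter. With 16 added to each signal, the changes of such dim genes are understated, which limits the comparison of their profiles.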

How the data were processed

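The authors deposited 1 linear intensity per probe set and array (6 arrays), made with MAS5 according to the submitters' processing notes. MAS5 version and scaling target are not given in the sources used here, and the table held no detection calls. The mean without the lowest and highest 2% of values was 499.95 on every array, so a change common to all transcripts would not show. Names come from GEO's annotation of the platform, where 41091 probe sets carry 1 gene symbol, 1801 several and 11721 none, beside 62 controls. RefSeq (GRCh38.p14) held the gene IDs of 41037. Values were converted to log2(signal + 16), and the brightest single-symbol probe set stood for a gene. The upper 60% of probe sets by mean were tested. Ecd siRNA was set against control siRNA across all genes with limma 3.58.1 (eBayes with trend, R 4.3.3), two-sided, with Benjamini-Hochberg adjustment. The SE of a member comes from the same fit over every single-symbol probe set. The procedure was tested on simulated data.

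The cluster, the gene lists, the naming rule and the 17 alternatives were chosen with earlier results of these data known. Named genes were ECD, all members, called neighbours and the 2 nearest per side, in each list at most 4 called genes, lowest adjusted p first (or the 2 lowest where fewer than 2 passed), and the 3 nearest profiles. RUNX2, MMP14, TIMP1, KRT5 and KRT14 were also named after their values were seen. The labels call the replicates biological, with no word on separate cultures, so the spread behind each p may be partly technical. The number of arrays limits the precision.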

Additional observations from a re-analysis of the deposited data

How the results depend on the processing

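The alternatives were the pseudocount (1, 64), no filter or the upper 40% of signals, quantile normalization, scaling to a common median, the mean of probe sets, probe sets without _s_at or _x_at, no intensity trend, array weights, a replicate block and each array left out. Genes called in all numbered 3075, and 2203 to 3301 under these 17. Called cluster genes numbered 5, and 4 to 6. The flanking genes called fell from 3 to 1 with a common median, without the filter, with the mean of probe sets and without the trend, and ranged from 1 to 3 with an array left out. Regulator and partner genes called numbered 35, and 23 to 33 with an array left out. ITGB4, a basal marker called at 0.29, turned to -0.13 when its probe sets were averaged (adjusted p = 0.399). In those without _s_at or _x_at ITGB4 was called lower, at -1.12 (adjusted p = 0.0155). JUN was at -0.005 in such a probe set but kept its call with the mean of its probe sets. The cause of these changes was not tested. Over single genes and the counts of each list, 1033 of 1169 recomputed values stayed the same. For genes outside the cluster this meant the same call and, where called, the same direction. For cluster genes it meant within 1 SD, and for counts within 1.5 times. Of the rest, 126 lost the call or fell below that, 4 gained one or rose above it, and 3 cluster gene values moved by more. The last 3 were changes of called genes that turned sign. Turns of sign in genes that were not called stayed uncounted, as for DCUN1D5, which went from -0.19 to 0.05 with the mean of probe sets. With the number as a replicate block 3277 genes were called. Same-numbered arrays correlated at -0.009, 0.079 and 0.152 in their deviations from the group means. Arrays with different numbers correlated at -0.134 to 0.057. Whether a number marks a shared culture is not settled by these values, and the main fit did not pair the arrays. Signals of MMP3, MMP8, MMP20 and MMP27 limit what could be seen of them.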
